A study of Mus musculus and Rattus norvegicus with 18 samples.

Results

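Zinc handling was followed in Mettl1-deficient heart and heart-derived cells through 7 genes: the metallothioneins Mt1, Mt2 and Mt3, the metal sensor Mtf1, the zinc exporter Slc30a1 and the zinc importers Slc39a10 and Slc39a14. They were taken by symbol (rat Mt2 is written Mt2A) from 55487 mouse and 32883 rat gene IDs, and all 7 are listed in each of the 3 count tables used. Mt3 was selected on its measured heart level, for its rise in cKO, so its heart values are given as a description with no test. Mettl1 encodes the methyltransferase that places N7-methylguanosine on a set of tRNAs. Whole hearts of 4-week-old C57BL/6 mice, either M1cKO (conditional Mettl1 knockout, cKO) or Ctrl, gave 2 RNA-seq and 2 Ribo-seq libraries per genotype; Ribo-seq reads are the stretches of RNA held by ribosomes (footprints). H9C2 cells, myoblasts of Sprague-Dawley embryonic heart kept as a line, gave RNA-seq libraries from 3 M1-null samples, all of 1 edited line with a CRISPR-Cas9 frameshift in Mettl1, and from 3 unedited WT samples. The labels used here do not give the Cre driver, the cells it acts in, the deleted exon, the genotype behind Ctrl or whether the edited line is 1 clone. Since they do not tie the replicates to separate hearts or cultures either, the p-values speak of the spread among these libraries, which may be technical.

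Metallothioneins are small cysteine-rich proteins that bind zinc and copper in the cytosol. Mt1 and Mt2 are made in most tissues and are induced by zinc, glucocorticoids and oxidative stress, while Mt3 is best known from the brain. Mtf1 is a zinc-finger transcription factor that senses free zinc and binds metal response elements in the promoters of Mt1, Mt2 and Slc30a1. Slc30a1 moves zinc out of the cell across the plasma membrane, and proteins of the Slc39 family, such as Slc39a10 and Slc39a14, move it into the cytosol. Slc39a14 also carries iron and manganese.

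In GRCm38.p6 gene records the metallothionein genes lie side by side on chromosome 8, in a cluster of 43.1 kb that runs through Mt4, Mt3, Mt2 and Mt1 (94137204 to 94180327). Mt1 (ENSMUSG00000031765.8) spans 94178883 to 94180327, Mt2 (ENSMUSG00000031762.7) spans 94172618 to 94173567, and Mt3 (ENSMUSG00000031760.9) spans 94152607 to 94154148. Mtf1 (ENSMUSG00000028890.13) lies on chromosome 4 from 124802549 to 124849800 and overlaps the record 1110065P20Rik. Slc30a1 (ENSMUSG00000037434.7, chromosome 1, 191906697 to 191913248) overlaps 1700034H15Rik. Slc39a10 (ENSMUSG00000025986.6) spans 46807544 to 46925776 on chromosome 1, and Slc39a14 (ENSMUSG00000022094.15) spans 70303467 to 70351452 on chromosome 14. The strand setting of the counting was not found in the labels, so reads from overlapping genes on opposite strands cannot be told apart in these counts. Mt1 and Mt2 are close in sequence, and how reads matching both were counted is not given either.

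Promoter sequences from RefSeq (GRCm38.p6) are shown for the metallothioneins and the exporter Slc30a1, the members on which the results turn and whose promoters, Mt3 aside, are known Mtf1 targets. The table holds windows for 6 of the 7 members, and Slc39a14 has no match. Capitals mark the core of the metal response element, searched on both strands as TGCACNC and TGCGCNC in 300 bases (250 before to 50 after the RefSeq start used), where a match is a description and not a bound site. The first pair gives the 250 bases before the start, 5′ to 3′ on the plus strand, of Mt2 (chr8:94172368-94172617) and Mt3 (chr8:94152357-94152606), and the second pair gives 30 bases around the upstream core of Mt1 (chr8:94179055-94179084) and Slc30a1 (chr1:191906727-191906756), also on the plus strand.
Mt2: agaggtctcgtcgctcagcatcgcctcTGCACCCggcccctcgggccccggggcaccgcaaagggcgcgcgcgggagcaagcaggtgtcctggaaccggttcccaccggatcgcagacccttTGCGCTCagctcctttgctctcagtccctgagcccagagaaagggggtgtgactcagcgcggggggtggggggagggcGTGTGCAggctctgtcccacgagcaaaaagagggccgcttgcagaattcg
Mt3: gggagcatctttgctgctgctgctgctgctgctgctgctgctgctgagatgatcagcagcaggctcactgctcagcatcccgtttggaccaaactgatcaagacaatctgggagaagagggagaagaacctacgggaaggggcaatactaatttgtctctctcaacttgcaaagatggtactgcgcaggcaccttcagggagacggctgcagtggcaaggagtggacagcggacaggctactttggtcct
Mt1: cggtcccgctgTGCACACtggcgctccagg
Slc30a1: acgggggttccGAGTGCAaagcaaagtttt

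The Mt2 window held 4 cores, at −223 to −217, −128 to −122, −50 to −44 (minus strand) and 5 to 11 (minus strand). Position −1 is the last base before the RefSeq start used, and 1 is the first base after that. Mt1 held 3 cores, at −23 to −17, 3 to 9 and 21 to 27. Slc30a1 held 2, both on the minus strand, at −43 to −37 and 31 to 37, and Mt3 held 1, at 28 to 34. No core was found in the windows of Mtf1 and Slc39a10, which says only that these letters are not in those bases. Of 32851 windows of the same length, 25.7% held at least 1 core, 7.114% at least 2, 1.969% at least 3 and 0.517% at least 4. The open reading frame counted in the Ribo-seq table began 222 bases after the start used for Mt1, 230 for Mt2 and 193 for Mt3. The windows ended 50 bases after that start, so the bases from there to each frame were not searched. The numbers of cores therefore describe these windows and not the whole promoters. The Mt1 window reaches 206 bases into its gene record and the Slc30a1 window 84 bases, so both gene records begin upstream of the start used.

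**Figure D1:**
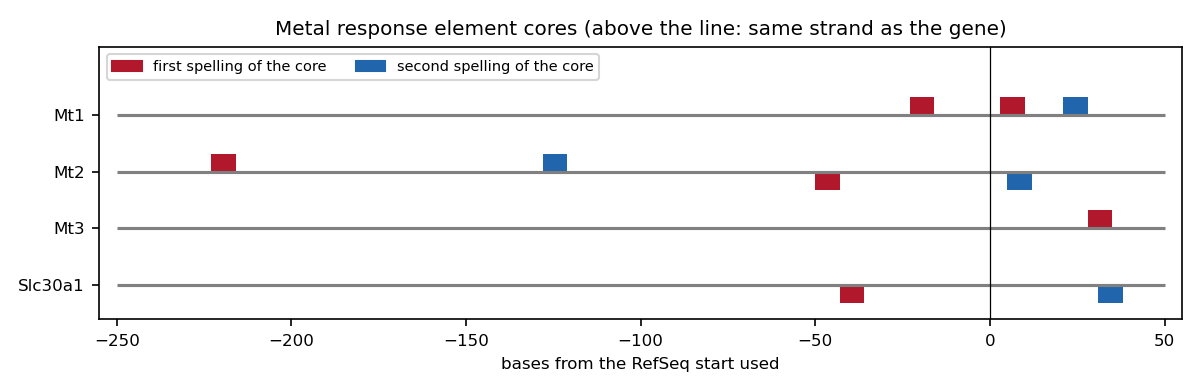
Position of metal response element cores (bases from the RefSeq start used, horizontal axis) in the windows of Mt1, Mt2, Mt3 and Slc30a1; blocks above a line lie on the gene's strand and blocks below it on the other strand, red for TGCACNC and blue for TGCGCNC. Mt2 has 4 blocks, Mt1 3, Slc30a1 2 and Mt3 1, which lies after the start.

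Library totals were 15.05 to 16.84 M counts (M for 1e6) in heart RNA-seq, 25.17 to 39.68 M footprints in Ribo-seq and 90.32 to 94.2 M counts in H9C2. Levels are CPM, counts per M of the library size after TMM scaling. The label check on Mettl1 gave 2.49 and 2.52 CPM in cKO heart RNA, against 4.31 and 3.76 CPM in Ctrl (log2 fold change −0.69, SE 0.24, adjusted p = 0.0664 in edgeR's quasi-likelihood test, Benjamini-Hochberg over all genes), and Eef1akmt3 overlaps the gene. Mettl1 footprints fell to 2.22 and 2.22 CPM in cKO, against 6.28 and 6.62 CPM in Ctrl (−1.54, edgeR adjusted p = 1.01e-04), and Mettl1 RNA fell to 3.75 to 4.72 CPM in null cells, against 15.6 to 16.6 CPM in WT cells (−1.93, edgeR adjusted p = 1.11e-05). Summed marker levels of several cell types differed between genotypes in heart RNA, where 6.26% of all genes fell and 8.16% rose. Those of 6 fibroblast markers overlapped, at 1849 to 1973 CPM in cKO and 1753 to 1864 CPM in Ctrl, with 0 called. The 8 cardiomyocyte markers stood at 47720 to 48140 CPM in cKO and 51750 to 52060 CPM in Ctrl, with 5 called lower (2 in DESeq2). The 6 endothelial markers stood at 1413 to 1425 CPM in cKO and 1541 to 1617 CPM in Ctrl, with 2 called lower (2 in DESeq2). Erythroid markers went the other way, with 6 summing to 1591 to 2491 CPM in cKO and 1454 to 1589 CPM in Ctrl and 3 called higher (0 in DESeq2), and 6 macrophage markers summed to 328.3 to 332.5 CPM in cKO and 291.7 to 312.1 CPM in Ctrl, with 0 called in edgeR or DESeq2 and 2 higher at an unadjusted p under 0.05. The 5 pericyte and smooth muscle markers stood at 575 to 632.6 CPM in cKO and 667 to 703.6 CPM in Ctrl, with 0 called. Not all markers of a list moved alike. The cardiomyocyte marker Tnni3 had a log2 fold change of 0.15 and the endothelial marker Emcn one of 0.04, without a call. In footprints the cardiomyocyte markers summed to 116200 to 117500 CPM in cKO and 133800 to 139200 CPM in Ctrl. Of these, 3 were called lower, where 7.33% of all genes fell. Macrophage footprints went the other way, at 880.8 to 906.1 CPM in cKO and 799.9 to 814.8 CPM in Ctrl. H9C2 cells carried little of the adult cardiomyocyte programme, with the same 8 markers summing to 12.5 to 14.4 CPM in null and 25.4 to 27.7 CPM in WT cells, and Ryr2 and Myl2 at 0.

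In cKO hearts the metallothioneins did not move together. Mt1, the most abundant of them, was slightly lower, Mt2 carried more footprints, and Mt3, near the limit of detection in Ctrl RNA and low in Ctrl footprints, stood many-fold higher in both assays. The levels in each heart library, RNA and footprints, are plotted for all 7 genes.

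**Figure D2:**
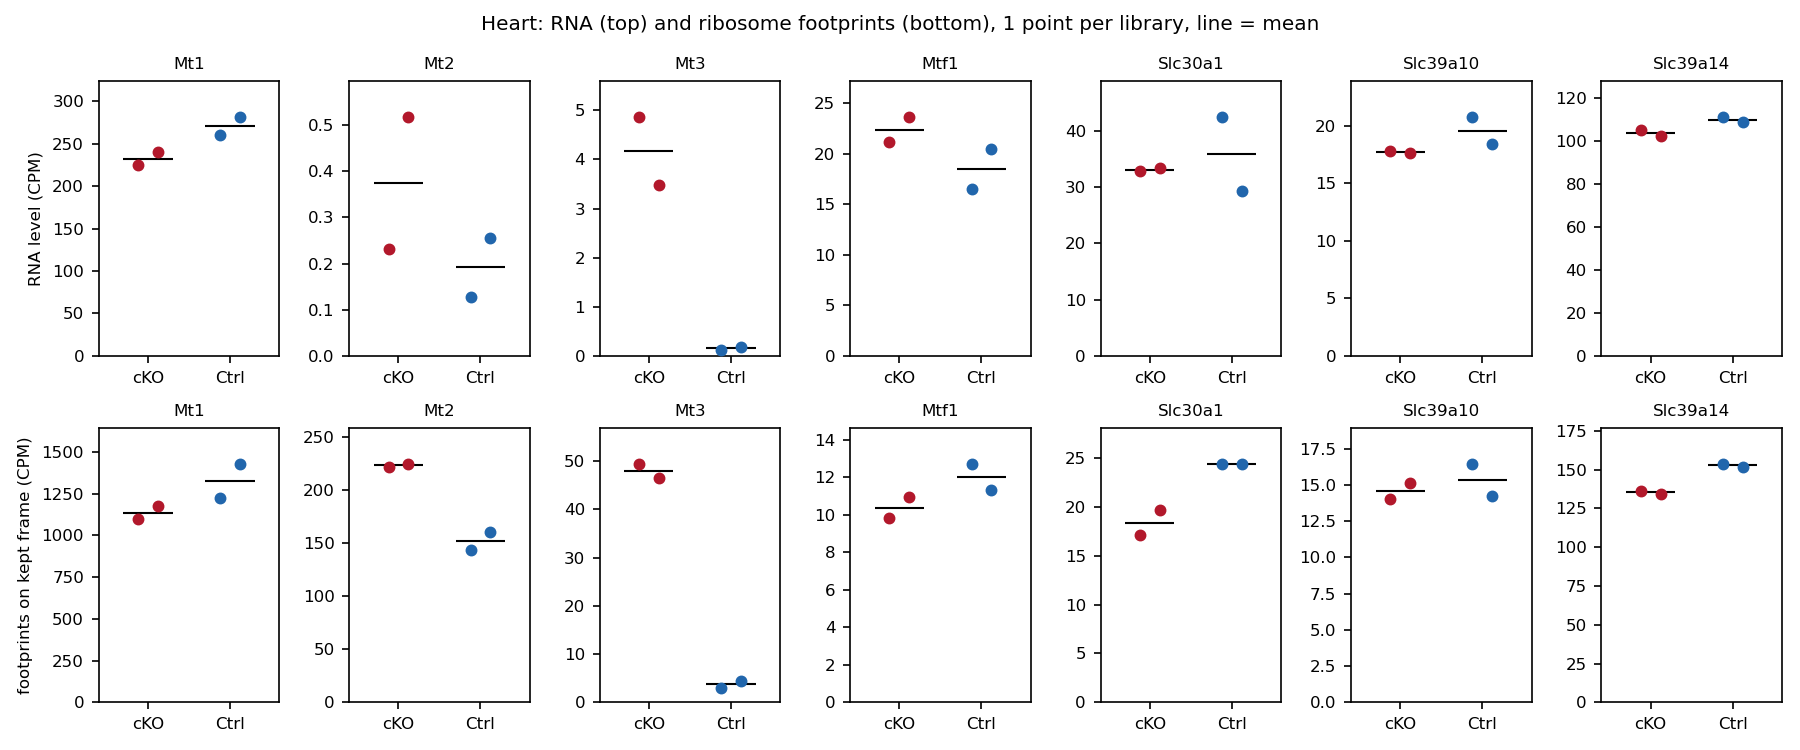
CPM (vertical axes, linear from 0) of the 7 genes in heart RNA (top row) and in heart footprints on the kept reading frame (bottom row), 1 point per library with the mean as a line, cKO left of Ctrl (n = 2 each). Mt3 stands at 3.49 and 4.86 CPM in cKO RNA and at most 0.191 CPM in Ctrl RNA, and Mt2 footprints at 222 and 225 CPM in cKO and 144 and 161 CPM in Ctrl.

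Mt3 had 84 and 54 RNA counts in the cKO libraries, against 2 and 3 counts in the Ctrl libraries. In CPM these are 4.86 and 3.49 in cKO and 0.129 and 0.191 in Ctrl, where 3 counts in a library are worth 0.174 to 0.194 CPM. Both cKO libraries were far above both Ctrl libraries, which were at the edge of detection. Over the group, 138 counts in cKO against 5 in Ctrl gave a ratio of 26.3. Mt3 footprints were better sampled, with 1980 and 1610 in the cKO libraries and 74 and 146 in the Ctrl libraries, or 49.4 and 46.5 CPM in cKO and 3.08 and 4.43 CPM in Ctrl. The fitted log2 fold change was 4.65 in RNA and 3.65 in footprints, and the footprint value was 3.43 without Ctrl library 1 and 3.96 without Ctrl library 2. The change in footprints relative to RNA was −1.03 on the log2 scale and rests on the 5 Ctrl RNA counts. As Mt3 is known from neurons and glia, markers of those cells were read beside it: 10 markers summed to 17.5 to 20.2 CPM in cKO RNA and 28.5 to 29.0 CPM in Ctrl RNA, and the 8 of them in the footprint table summed to 18.5 to 19.6 CPM in cKO footprints and 28.9 to 29.1 CPM in Ctrl footprints. None of the 10 was at 0 in RNA, while Rbfox3, Snap25 and Gfap, which define neurons and astrocytes, averaged under 0.3 CPM in each group. The marker with a call was Aqp4, a water channel of astrocytes that heart also expresses, which fell to 10.9 CPM in cKO RNA, against 20.4 CPM in Ctrl RNA (−0.90, edgeR adjusted p = 1.24e-04).

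Mt1 RNA stood at 225 and 240 CPM in the cKO libraries and at 260 and 281 CPM in the Ctrl libraries. The groups did not overlap, as for 55% of all genes tested in heart RNA, and Mt1 fell by 0.22 on the log2 scale (SE 0.06, n = 2 against 2, edgeR adjusted p = 0.024). In bulk tissue fewer cells of a type and less RNA per cell cannot be told apart, and the part of the lower summed cardiomyocyte and endothelial markers and the higher erythroid ones in this difference was not tested. The call on Mt1 RNA was lost when CPM were scaled by library totals alone (−0.14, adjusted p = 0.141), in DESeq2 (0.0767), without Ctrl library 2 (0.185) and without cKO library 1 (0.171). Mt1 footprints stood at 1097 and 1174 CPM in cKO and at 1226 and 1430 CPM in Ctrl, a log2 fold change of −0.23 (SE 0.085) that missed the threshold in edgeR's test (adjusted p = 0.0887). They passed where 1 count was enough to enter the test (0.0269) and without Ctrl library 1 (0.015). The change of footprints relative to RNA was −0.02 for Mt1 (edgeR interaction test, adjusted p = 0.974) and 0.04 without the libraries numbered Ctrl 2, so no shift beyond that of its RNA was detected.

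Mt2 footprints rose in cKO hearts. The 2 cKO libraries held 222 and 225 CPM and the 2 Ctrl libraries 144 and 161 CPM, with no overlap, as for 55.9% of all genes tested in footprints. The log2 fold change was 0.55 (SE 0.08, edgeR adjusted p = 2.69e-04), and it kept its call in all 11 alternatives run, between 0.47 and 0.64 with adjusted p from 1.4e-08 to 0.003. Mt2 RNA could not be tested, since the deposited RNA table holds only 4 and 8 counts in cKO and 2 and 4 in Ctrl, a ratio of 1.91 with an exact 95% interval of 0.663 to 6.2. Over 4 libraries each, Mt2 had 25441 footprints and 18 RNA counts. Of 641 other genes with at least as many footprints, 1 had as few RNA counts, the non-coding RNA gene Rpph1, a name chosen after its values were seen. The cause of this mismatch was not tested, so Mt2 is described from footprints alone and its RNA level is uncertain.

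Mt1 and Mt2 have coding frames of equal length, 61 codons, so their footprints were set side by side without a correction for length. How reads matching both genes were counted is not given, so the ratio and shares below describe the footprints as counted. There were 0.202 and 0.192 Mt2 footprints per Mt1 footprint in the cKO libraries, against 0.117 and 0.113 in the Ctrl libraries. Both cKO libraries lie above both Ctrl libraries, and the spread within a genotype is small beside the gap; with 2 against 2 an exact permutation test cannot reach p = 0.05. Summed over Mt1, Mt2 and Mt3, footprints came to 1368 and 1446 CPM in cKO and 1372 and 1595 CPM in Ctrl, so the totals overlapped while the makeup differed. Mt2 made up 16.2% (95% Wilson interval 15.9 to 16.5) and 15.6% (15.2 to 15.9) of these footprints in cKO, against 10.5% (10.1 to 10.8) and 10.1% (9.84 to 10.4) in Ctrl. Mt3, picked for its rise and so given without intervals, made up 3.61% and 3.22% in cKO, against 0.224% and 0.278% in Ctrl. Mt1 held the rest, 80.2% and 81.2% in cKO and 89.3% and 89.6% in Ctrl. Intervals and limits given here cover counting error only and take each read as an independent molecule. Reads without molecular identifiers are not independent molecules, so the intervals may be too narrow even for that error.

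**Figure D3:**
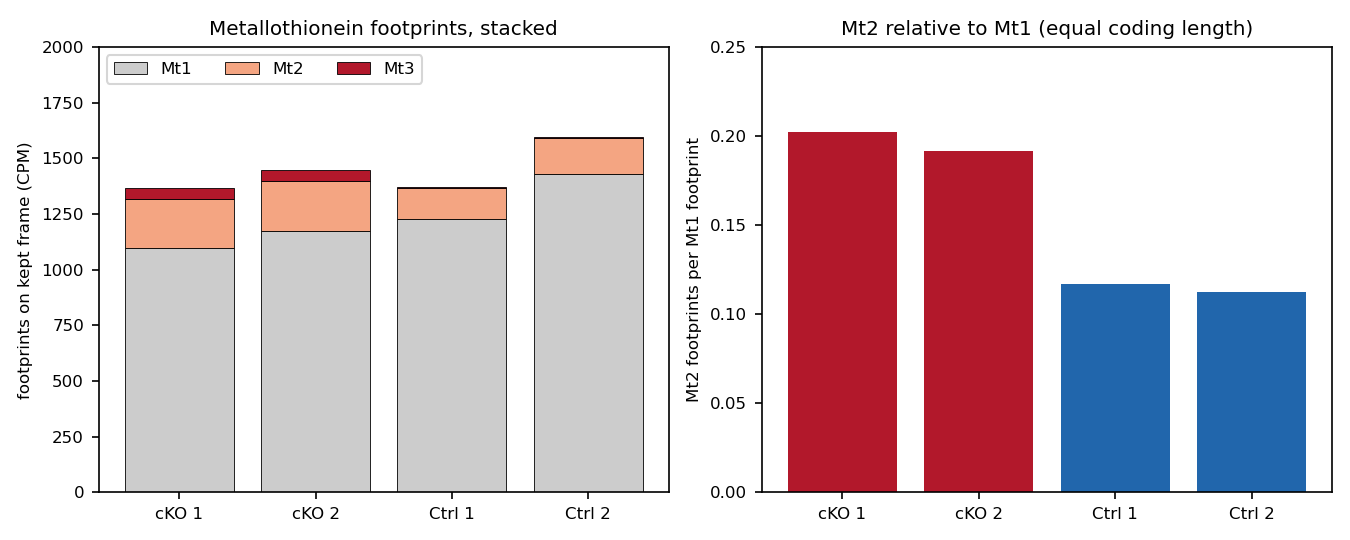
Left, footprints on the kept frames of Mt1, Mt2 and Mt3 (CPM, stacked bars from 0) in each heart library; right, Mt2 footprints per Mt1 footprint in the same libraries, cKO in red and Ctrl in blue. Stack heights overlap between genotypes (1368 and 1446 against 1372 and 1595 CPM), while the ratio is 0.202 and 0.192 in cKO and 0.117 and 0.113 in Ctrl.

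Divided by coding length, footprints ranked the members over 3 orders of magnitude. In cKO hearts Mt1 led with 1862 ± 89.8 CPM per 100 codons, before Mt2 with 366 ± 3.39 and Mt3 with 70.5 ± 3.08 (SD, n = 2 each). Slc39a14 followed with 27.7 ± 0.29, then Slc30a1 with 3.65 ± 0.359, Slc39a10 with 1.75 ± 0.0926 and Mtf1 with 1.54 ± 0.118. In Ctrl hearts Mt3 stood below Slc39a14, at 5.52 ± 1.41 CPM per 100 codons against 31.2 ± 0.262, and next to Slc30a1 at 4.84 ± 0.00707. The other Ctrl levels per 100 codons were 2176 ± 236 for Mt1, 249.7 ± 20.3 for Mt2, 1.85 ± 0.187 for Slc39a10 and 1.78 ± 0.146 for Mtf1. In Ctrl, the neighbours Mt3 and Slc30a1 and the neighbours Slc39a10 and Mtf1 did not differ beyond their spread.

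Mtf1, the sensor that drives Mt1, Mt2 and Slc30a1, showed no call in heart. Its RNA stood at 21.2 and 23.6 CPM in cKO and at 16.5 and 20.5 CPM in Ctrl, with no overlap (log2 fold change 0.27, SE 0.12, edgeR adjusted p = 0.15). Without Ctrl library 2 the value was 0.43 and passed (edgeR adjusted p = 0.0141). Mtf1 footprints pointed the other way, at 9.81 and 10.9 CPM in cKO against 12.7 and 11.3 CPM in Ctrl (−0.21, edgeR adjusted p = 0.347). The change of footprints relative to RNA was −0.50 (SE 0.18, unadjusted p = 0.0153 in edgeR's interaction test), which did not pass after adjustment over all genes (0.407). A second Mtf1 frame of 31 codons in the Ribo-seq table held 19 and 14 footprints in cKO and 20 and 25 in Ctrl.

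The zinc exporter Slc30a1 lost footprints in cKO hearts, at 17.1 and 19.6 CPM in cKO against 24.3 and 24.4 CPM in Ctrl. The groups did not overlap, and the log2 fold change was −0.41 (SE 0.11, edgeR adjusted p = 0.0199). The call ended with library totals (−0.34, adjusted p = 0.0515), without either Ctrl library (0.0564 without Ctrl 1 and 0.0555 without Ctrl 2) and without cKO library 1 (−0.32, 0.246), and the direction held in each. Slc30a1 RNA stood at 32.8 and 33.4 CPM in cKO and at 42.3 and 29.3 CPM in Ctrl. The Ctrl libraries lie on either side of the cKO libraries, and the fold change of −0.12 (edgeR adjusted p = 0.622) became 0.17 without Ctrl library 1 and −0.36 without Ctrl library 2 (adjusted p = 0.011). The footprint change relative to RNA was −0.31 (SE 0.19, adjusted p = 0.637 in edgeR's interaction test).

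The importers Slc39a10 and Slc39a14 showed no call in heart. Slc39a14, the transporter with the most footprints per codon here, had 105 and 102 CPM of RNA in cKO against 111 and 109 CPM in Ctrl (log2 fold change −0.08, edgeR adjusted p = 0.434), and 136 and 134 CPM of footprints in cKO against 154 and 152 CPM in Ctrl (−0.17, SE 0.08, edgeR adjusted p = 0.155). Its cKO libraries were below its Ctrl libraries in both assays by less than 0.2 on the log2 scale. Slc39a10 RNA stood at 17.8 and 17.6 CPM in cKO and 20.7 and 18.4 CPM in Ctrl (−0.14, edgeR adjusted p = 0.448). Slc39a10 footprints overlapped, at 14.1 and 15.2 CPM in cKO and 16.5 and 14.3 CPM in Ctrl (−0.07, edgeR adjusted p = 0.774). Footprints relative to RNA changed by −0.11 for Slc39a14 (adjusted p = 0.773) and 0.06 for Slc39a10 (0.952) in edgeR's interaction test.

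Across the members other than Mt3, 1 of the 5 tested in heart RNA passed adjusted p 0.05 (Mt1, lower), where 14.4% of all 14088 genes tested passed. In footprints 2 of 6 passed (Mt2 higher, Slc30a1 lower), where 16.4% of 13514 genes passed. Of the 5 tested for a change of footprints relative to RNA, 0 passed in edgeR's interaction test and 1, Mtf1, had an unadjusted p under 0.05, where 0.126% of 12662 genes passed after adjustment (16 genes) and 1227 before. These members were picked with results known, and their counts are small.

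In H9C2 cells lacking Mettl1, the exporter Slc30a1 and the metallothionein Mt2A rose. Slc30a1 RNA stood at 30.3, 28.8 and 29.6 CPM in null cells and at 19.1, 15.0 and 21.4 CPM in WT cells. Every null sample was above every WT sample, and the groups did not overlap for 42.6% of all genes tested. The log2 fold change of 0.67 (SE 0.12, n = 3 against 3, edgeR adjusted p = 0.00381) kept its call in all 12 alternatives run, between 0.55 and 0.79 with adjusted p of at most 0.0231. Mt2A was thinly expressed, with 60, 84 and 61 counts in null cells and 29, 15 and 12 counts in WT cells. In CPM these are 0.628, 0.891 and 0.649 in null cells and 0.322, 0.171 and 0.131 in WT cells, which do not overlap. Mt2A rose by 1.79 on the log2 scale (SE 0.43, edgeR adjusted p = 0.0161), and the call ended without null sample 2 (1.61, adjusted p = 0.0785).

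The other members showed no call in H9C2. Mt1 stood at 1.84, 2.35 and 2.27 CPM in null cells and 1.52, 2.28 and 0.946 CPM in WT cells, which overlap (log2 fold change 0.45, SE 0.295, edgeR adjusted p = 0.313), and it passed without WT sample 2 (0.80, adjusted p = 0.0479). Mt3 had 0 counts in all 6 samples, where 3 counts are worth 0.0314 to 0.0341 CPM, so its heart pattern has no counterpart to compare. Mtf1 stood at 11.3, 8.46 and 8.91 CPM in null cells and 8.87, 7.50 and 9.94 CPM in WT cells (0.12, edgeR adjusted p = 0.592), and the value was −0.01 without null sample 1. Slc39a10 stood at 49.3, 47.7 and 46.1 CPM in null cells and 41.0, 38.4 and 48.1 CPM in WT cells (0.17, edgeR adjusted p = 0.195), and it passed without WT sample 3 (0.26, 0.0156). Slc39a14 stood at 44.4, 40.2 and 44.9 CPM in null cells and 44.4, 41.1 and 43.5 CPM in WT cells (0.01, SE 0.07, edgeR adjusted p = 0.963). Thus 2 of 6 tested members passed, where 25.1% of all 14801 genes tested passed. The heart and H9C2 fits differ in species, table and cell type, and the difference between them was not tested.

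**Figure D4:**
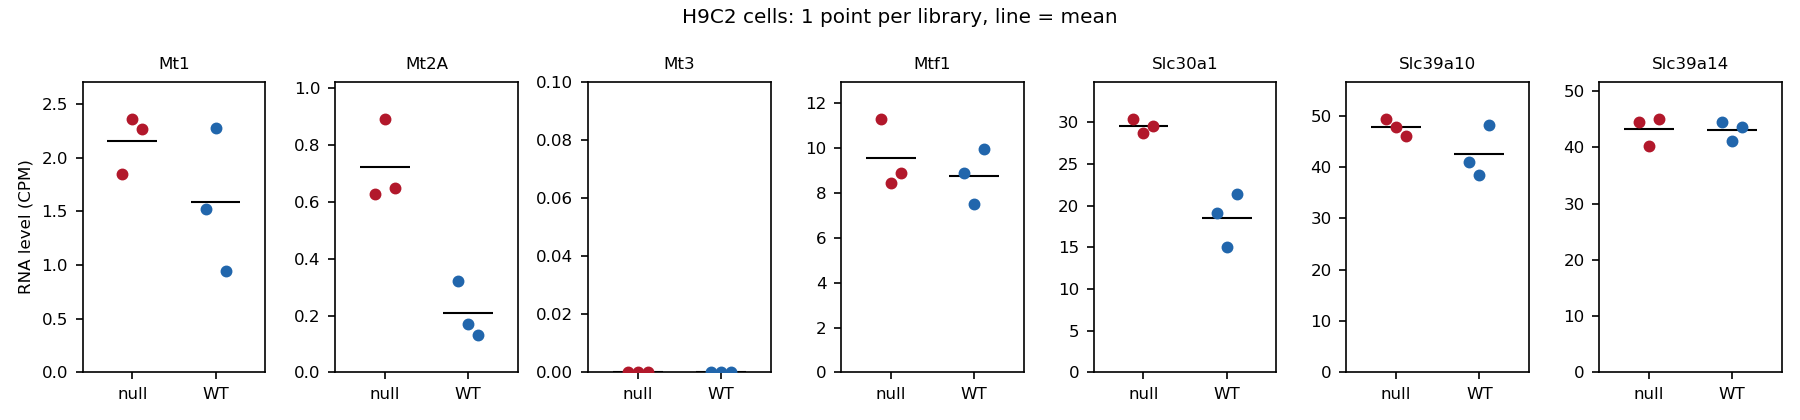
CPM (vertical axes, linear from 0) of the 7 genes in H9C2 RNA, 1 point per sample with the mean as a line, null left of WT (n = 3 each). The null samples of Slc30a1 (28.8 to 30.3 CPM) and of Mt2A (0.628 to 0.891 CPM) all lie above the WT samples (15.0 to 21.4 and 0.131 to 0.322 CPM), and Mt3 is at 0 throughout.

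The wider families were read from lists of 10 Slc30 exporters and 14 Slc39 importers, which include the 3 transporters above. In heart RNA 1 of 7 tested exporters changed: Slc30a9, a zinc transporter of the mitochondria, fell to 93.1 ± 3.84 CPM in cKO, against 112.7 ± 1.11 CPM in Ctrl (SD, n = 2 each, −0.28, SE 0.06, edgeR adjusted p = 0.00853), where 6.26% of all genes fell. In footprints 2 of 7 fell, Slc30a1 and Slc30a9, where 7.33% of all genes fell. Slc30a9 footprints stood at 26.8 ± 0.507 CPM in cKO and 38.7 ± 5.36 CPM in Ctrl (−0.53, SE 0.11, edgeR adjusted p = 0.0034), a call kept in all 11 alternatives, while its RNA call ended without cKO library 1 (adjusted p = 0.089). In H9C2, 3 of 7 exporters rose, where 13.6% of all genes rose: Slc30a1, Slc30a3, which loads zinc into synaptic vesicles in neurons, and Slc30a4, which moves zinc into intracellular vesicles. Slc30a3 averaged 22.3 ± 1.35 CPM in null and 14.8 ± 1.34 CPM in WT cells (0.59, SE 0.09, edgeR adjusted p = 0.00187). Slc30a4 averaged 166 ± 5.71 CPM in null and 141 ± 14.2 CPM in WT cells (0.24, edgeR adjusted p = 0.0485), a call that ended in 6 of 12 alternatives, with adjusted p up to 0.162. The exporters' median log2 fold changes were −0.05 in heart RNA, 0.01 in footprints and 0.06 in H9C2, against −0.0001, 0.004 and 0.0044 over all genes tested.

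Among the importers, 1 changed in each data set. In heart RNA it was Slc39a6, a plasma membrane importer that pairs with Slc39a10, at 12.3 ± 0.012 CPM in cKO and 8.29 ± 0.381 CPM in Ctrl (0.57, SE 0.13, edgeR adjusted p = 0.01), 1 of 10 tested, where 8.16% of all genes rose. The call ended in DESeq2 (0.0861) and without cKO library 1 (0.0575). In H9C2 Slc39a6 also rose, to 113.6 ± 2.46 CPM in null cells against 74.9 ± 3.17 CPM in WT cells (0.60, SE 0.05, edgeR adjusted p = 9.29e-05), 1 of 12 tested where 13.6% of all genes rose, and it kept its call in all 12 alternatives. Slc39a6 footprints stood at 10.7 ± 0.385 CPM in cKO heart and 8.18 ± 0.315 CPM in Ctrl heart, without passing (0.39, edgeR adjusted p = 0.0792). In footprints it was Slc39a11 of 11 tested that rose, at 3.68 ± 0.301 CPM in cKO against 2.095 ± 0.258 CPM in Ctrl (0.80, SE 0.25, edgeR adjusted p = 0.036), where 9.11% of all genes rose, and the call ended in DESeq2 (0.0903) and without any 1 of the 4 libraries (adjusted p 0.0581 to 0.155). The importers' medians were 0.02 in heart RNA, −0.02 in footprints and 0.04 in H9C2. No exporter of 7 and no importer of 10 passed for a change of footprints relative to RNA in edgeR's interaction test, where 1 exporter and 0 importers had an unadjusted p under 0.05.

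**Figure D5:**
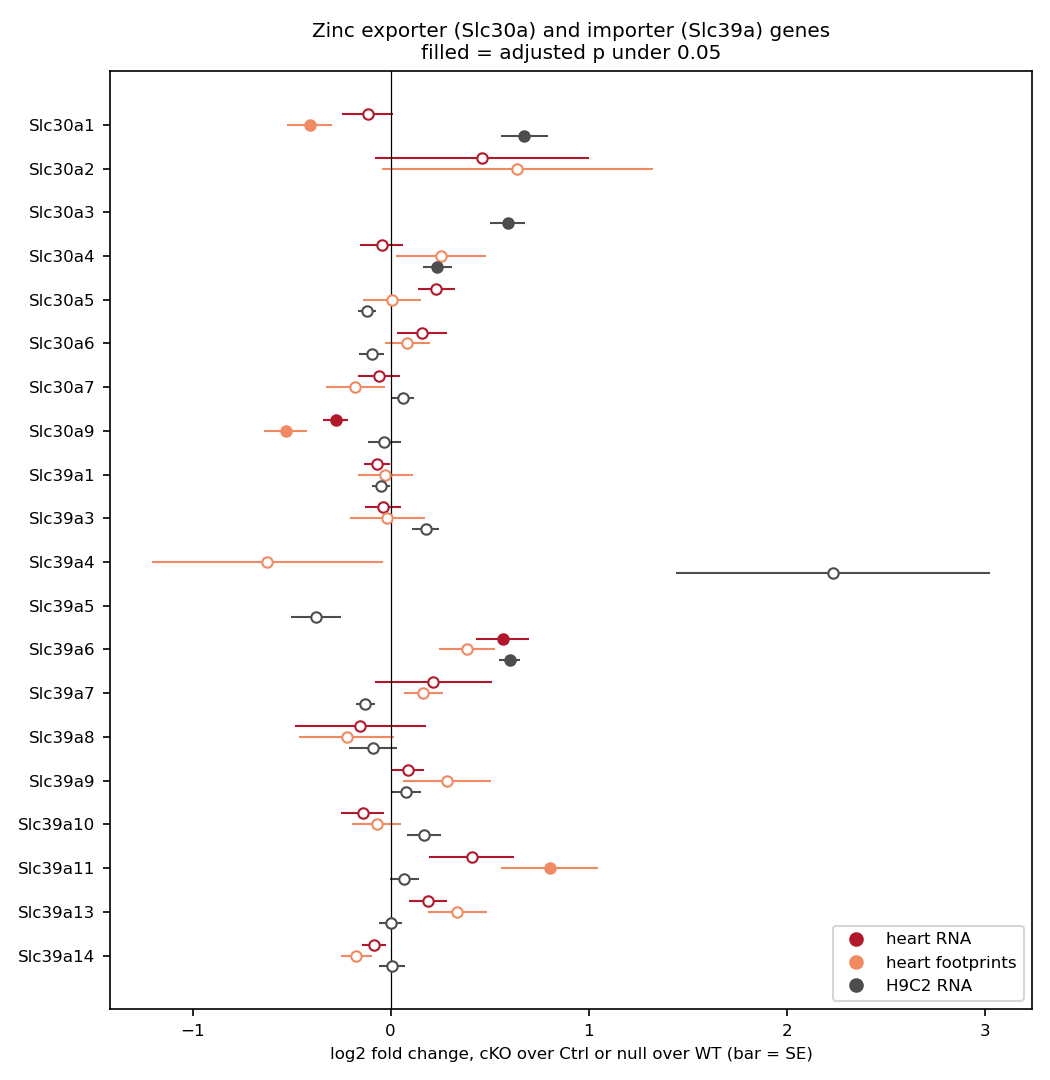
Log2 fold change (horizontal axis, bars are SE) of each Slc30a exporter and Slc39a importer tested in heart RNA, heart footprints (cKO over Ctrl) and H9C2 RNA (null over WT), filled where the adjusted p is under 0.05. Slc30a9 is filled and below 0 in both heart assays, and Slc39a6 is filled and above 0 in heart RNA and H9C2.

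Metallothioneins also bind copper and answer to glucocorticoids, so lists of both were read. Of copper-handling genes 2 of 14 rose in heart RNA, where 8.16% of all genes did, and 3 of 13 in footprints, where 9.11% did. Cox19, an assembly factor of cytochrome c oxidase, averaged 52.6 ± 0.499 CPM of RNA in cKO against 28.5 ± 0.91 CPM in Ctrl (0.89, SE 0.08, edgeR adjusted p = 3.26e-06), and its footprints rose by 0.87 (edgeR adjusted p = 4.04e-04). Atox1, the copper chaperone of the copper ATPases, rose by 0.62 in RNA (SE 0.12, edgeR adjusted p = 0.00225) and by 0.52 in footprints (SE 0.09, edgeR adjusted p = 0.00122), though its RNA call ended without cKO library 1 (0.0511). Sco2, which delivers copper to the oxidase, rose by 0.30 in footprints (edgeR adjusted p = 0.0437), a call lost whichever library was left out. The RNA table lists Sco2 at 0 in all 4 heart libraries, beside 36.8 CPM of footprints in cKO and 29.9 CPM in Ctrl, so it shares with Mt2 a mismatch between the tables whose cause was not tested. The list's median log2 fold change was 0.06 in RNA and 0.14 in footprints. In H9C2, 3 of 14 rose and 3 fell, where 13.6% and 11.5% of all genes did. The copper ATPase Atp7a averaged 61.1 ± 3.45 CPM in null and 39.5 ± 5.39 CPM in WT cells (0.63, edgeR adjusted p = 0.00204), and the copper importer Slc31a1 and its relative Slc31a2 rose by 0.28 and 0.46. The reductase Steap3 averaged 84.6 ± 3.495 CPM in null and 123.2 ± 1.46 CPM in WT cells (−0.54, edgeR adjusted p = 1.33e-04), beside Steap2 at −0.28 and Commd1 at −0.39. Calls on Slc31a1, Slc31a2 and Commd1 ended without some single samples (adjusted p up to 0.0597, 0.076 and 0.0673).

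Glucocorticoid targets gave 1 call of 15 in heart RNA and 3 of 15 in footprints, all lower in cKO, where 6.26% and 7.33% of all genes fell. Klf9, a transcription factor, fell to 132.6 ± 6.03 CPM of RNA in cKO against 163 ± 18.5 CPM in Ctrl (−0.30, SE 0.07, edgeR adjusted p = 0.0134), but lost its call without Ctrl library 1 (−0.18, 0.196), without cKO library 1 (0.109) and with library totals (0.0628). In footprints Klf15, a regulator of cardiac fuel use, fell to 38.0 ± 0.675 CPM in cKO against 51.1 ± 0.22 CPM in Ctrl (−0.43, SE 0.09, edgeR adjusted p = 0.00381), and its call ended without cKO library 1 (0.0551). Tsc22d3 and Zbtb16 fell by 0.27 and 0.26 in footprints, and both lost their calls with library totals (adjusted p 0.0864 and 0.142) and without some libraries (up to 0.223 and 0.321). No target was called in both heart assays. Klf9 footprints changed by 0.04, and RNA by −0.12 for Klf15, −0.04 for Tsc22d3 and −0.16 for Zbtb16, all without a call. At an unadjusted p under 0.05 in edgeR's test, 1 target was higher and 3 were lower in each heart assay. In H9C2, 5 of 13 rose and 1 fell, against 13.6% and 11.5% of all genes. Dusp1, a phosphatase of MAP kinases, averaged 84.7 ± 2.53 CPM in null and 44.1 ± 3.06 CPM in WT cells (0.94, edgeR adjusted p = 2.77e-05). The kinase Sgk1 rose by 0.76, the pyruvate dehydrogenase kinase Pdk4 by 2.66 at under 1 CPM, the lipase inhibitor Angptl4 by 1.39, and Nfkbia by 0.24 with a call lost in 8 of 12 alternatives. Tsc22d3 fell by 0.34. The list's median was −0.04 in heart RNA, −0.01 in footprints and −0.06 in H9C2.

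Likeness of pattern was measured as the root mean square difference in log2 CPM over the 8 heart libraries, after centring each gene within each assay, among 12662 genes tested in both assays. For Mt1 the nearest genes were Adam15 (0.0296), Tmem214 (0.0298), Abcc9 (0.0308), Lrsam1 (0.0312) and Ehd2 (0.0315). For Mt3 they were Nppa (0.197), Gm3776 (0.305), Plcxd2 (0.338), AC105304.1 (0.357) and Tchhl1 (0.368). Mt3 was picked for its rise in these same libraries, so its nearest genes were bound to be genes that rise in cKO. Its list is therefore a description only. Nppa, which encodes atrial natriuretic peptide, differed between cKO and Ctrl by 3.597 on the log2 scale in RNA and by 3.62 in footprints. The values for Mt3 were 4.65 and 3.65. They were 8.24 and 8.03 for Gm3776, 4.02 and 7.48 for Plcxd2, 7.1 and 7.73 for AC105304.1 and 5.27 and 5.22 for Tchhl1. The likeness used levels with a prior count of 2 added, which shrinks differences of genes near 0 counts. Mt2 was not tested in both assays and has no such list.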

How the data were processed

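The authors deposited raw counts: reads per gene for heart RNA-seq and for H9C2, and footprints per open reading frame for Ribo-seq. These units were read from the values. Builds listed in the submitters' processing notes are Rnor_6.0 and GRCm38, and the tools are Bowtie, Bowtie2, cutadapt, DESeq2, featureCounts, HISAT2, STAR and StringTie, with no versions and no word on which made which table. The 4 tRNA libraries were not analysed here.

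Of 26398 frames of 17866 genes, the frame with the most footprints was kept per gene (98.914% of footprints). Each data set was fitted apart with edgeR 4.0.16 (R 4.3.3; TMM, filterByExpr, glmQLFit and glmQLFTest, Benjamini-Hochberg over all genes, threshold 0.05). Footprints relative to RNA were the genotype by assay interaction over the 8 heart libraries. The SE is the absolute log2 fold change divided by the square root of F. The procedure was also run on simulated data with 200 changed genes. Those data gave every gene the same spread, which was not taken from these libraries, so that run does not show how the fits perform here.

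The members and lists were chosen with earlier results of these data known. Named genes are the members, Mettl1, the 5 nearest patterns of Mt1 and Mt3, and at most 4 called genes per list, direction and comparison; Nfkbia, Rpph1 and the cell markers named one by one are outside that rule and were named after their values were seen. Alternatives were relative-log-expression factors, library totals, DESeq2 1.42.0 (not for the interaction), at least 1 count, a minimum of 50 counts in all libraries of 1 group, the replicate number as a block, each library left out, footprints summed over all frames and, added after seeing the data, TMM within each assay.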

Additional observations from a re-analysis of the deposited data

How the results depend on the processing

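Over the alternatives, 647 values of single genes were recomputed. Of these, 572 kept their direction and side of the threshold, 56 lost the call, 10 gained it, 7 turned direction and 2 moved. Mt3 in heart was not judged by the threshold, and its values counted as kept where they shifted by at most the SE of the main fit. The 2 that moved were Mt3 footprints without a Ctrl library. The 7 that turned were uncalled: Slc30a1 heart RNA without Ctrl 1 (range with 1 library left out −0.36 to 0.17), Slc39a10 footprints without Ctrl 1 (−0.18 to 0.033), Mtf1 in H9C2 without null 1 (−0.015 to 0.22), Slc39a14 in H9C2 without null 1, null 3 or WT 2 (−0.025 to 0.055) and Mt1 footprints relative to RNA without Ctrl 2 (−0.078 to 0.043). Leaving out 1 library at a time gave 1155 to 2002 called genes in heart RNA (2032 with all), the lowest without cKO 1, and 1148 to 1940 in footprints (2221 with all), also lowest without cKO 1. In H9C2 it gave 2354 to 4455 (3720 with all), with 2396, 2354 and 2463 without null 1, null 3 and WT 1. For footprints relative to RNA it gave 2 to 11 (16 with all), with 2 without cKO 1 and 7 without either Ctrl number. DESeq2 called 1080 genes in heart RNA. Library totals moved the split of higher and lower calls to 1769 and 506 in heart RNA (1150 and 882 with TMM), 1639 and 657 in footprints (1231 and 990) and 2341 and 1370 in H9C2 (2014 and 1706). No pairing by number was seen in H9C2, where deviations of same-numbered samples correlated at −0.053 to 0.048. Not every H9C2 sample correlated best with its own number. In heart, deviations of same-numbered libraries correlated at 0.01 in RNA and −0.039 in footprints. Between RNA and footprints they correlated at 0.089 (cKO) and 0.165 (Ctrl). With 2 libraries per group the deviations mirror each other, so a swap of numbers only flips the sign of each heart value. These heart values therefore cannot decide whether the replicate number marks paired libraries. With it as a block 2745, 2727 and 3147 genes were called in heart RNA, footprints and H9C2, and 134 for footprints relative to RNA, Mt1 footprints (adjusted p = 0.0246) and Mettl1 heart RNA (0.0499) passed and Nfkbia in H9C2 (0.0742) did not; no other call changed among the members, Mettl1, Aqp4 and the named zinc, copper and glucocorticoid genes. A fit that leaves a group with 1 library assumes that it varies like the others. Thin counts limit Mt2 and Mt3 in heart RNA and Mt2A in H9C2.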
